A study of Homo sapiens with 20 samples.

Results

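The interaction of cisplatin and ammonium tetrathiomolybdate (TM) after 24 h was examined in MDA-MB-231 cells, an established human triple-negative breast cancer line. It rests on 12 of the 20 arrays of the series, 3 each of cells given 36 µM cisplatin together with 10 µM TM for 24 h (Cis/TM 24 h), cisplatin alone for 24 h (Cis 24 h), TM alone for 24 h (TM 24 h) and neither drug (Control). RNA was hybridised to Affymetrix Human Gene 1.0 ST arrays, and each value is a log2 signal. For each of 18417 genes, the departure from additivity was Cis/TM 24 h minus Cis 24 h minus TM 24 h plus Control. A departure of 0 means that the log2 changes of the drugs add up, that is, that their fold changes multiply. A positive departure means that cells given both drugs lay above that sum (higher than additive) and a negative one that they lay below it (lower than additive), whichever way the gene itself moved.

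The Control arrays carry no time in their labels, and the same 3 arrays stand behind both treatment times of the series. The methods describe vehicle controls collected at both times, whereas the labels describe cells without treatment. The replicates A, B and C came from cells treated in triplicate, and nothing states that these were separate cultures, so p-values may measure technical spread. All arrays come from 1 cell line. Of 12 marker genes of this line, among them VIM, CD44 and AXL, all lay above the median gene (5.84), with mean log2 signals between 6.89 and 11.56. Of 10 markers of other breast cancer subtypes, 5 did, EPCAM being the highest at 8.27. Of 15 markers of blood, endothelial and stromal cells, 2 did, CD68 and ACTA2. The median log2 signal of the 12 line markers was 9.05 to 9.20 on the Cis/TM 24 h arrays, 9.10 to 9.32 on the Cis 24 h arrays, 9.13 to 9.24 on the TM 24 h arrays and 8.45 to 8.90 on the Control arrays. The part of this lower Control level in the results was not tested.

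Cisplatin binds to purine bases and crosslinks DNA. The crosslinks stall DNA and RNA polymerases and call up checkpoint, repair and cell death programmes, and long genes offer more sites at which transcription can stall. TM forms complexes with copper and protein and so lowers the copper available to enzymes and transporters. Copper is imported by SLC31A1 and exported or placed into vesicles by ATP7A and ATP7B, pumps that have also been linked to the handling of cisplatin. A departure from additivity can come from any of the 4 groups, so each gene below is read from its level in every group.

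At 24 h, 936 genes (5.08% of the genes tested) were higher than additive and 2104 genes (11.4%) were lower, at an adjusted p under 0.05 in limma and a departure over 1.5-fold. The median standard error of a departure was 0.191 on the log2 scale. The 936 higher genes had a median departure of 0.77, and their median log2 changes against Control were −0.28 in Cis/TM 24 h, −0.54 in Cis 24 h and −0.54 in TM 24 h. The 2104 lower genes had a median departure of −0.87, and their median changes against Control were 0.36 in Cis/TM 24 h, 0.71 in Cis 24 h and 0.53 in TM 24 h. In both sets the median with both drugs lay nearer to Control than the median with either drug. These medians use the arrays that chose the genes and share the Control arrays, so they are a description.

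The balance between the directions moved with the scaling of the arrays. Of the genes called, 30.8% were higher than additive with the values as deposited, 55.4% after centring each array on its median, 45.4% after quantile normalization and 45.4% after cyclic loess. Cyclic loess called 6.02% of all genes as higher and 7.23% as lower, which are the shares behind the counts after cyclic loess given below. Centring moved the median departure over all genes to 0.14, against 0.00 as deposited. Departures fell with the mean level of a gene as deposited (Spearman's rho −0.36 across genes, which are not independent replicates) and not after cyclic loess (−0.01). Cyclic loess called 646 of the 936 higher genes and 1292 of the 2104 lower genes again. The array TM 24 h A stood apart from its group, with a median of 5.91 over genes, against 5.77 and 5.79 on the other TM 24 h arrays. Without it, 804 genes were higher than additive and 2154 were lower. Spread over genes was narrowest on the Control arrays (SD 2.01, 2.01 and 2.03), against 2.04 to 2.18 on the other arrays compared. Their array quality weights were 0.511, 0.389 and 0.36, against 0.328 for TM 24 h A and 0.808 to 2.52 for the rest. With these weights in the fit, 921 genes were higher and 2169 lower. The part of the narrower Control spread in the departures was not tested beyond the scalings above.

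The group whose arrays stood apart from the rest differed from gene to gene. Among the 936 higher genes, the 3 Control arrays lay above all 9 other arrays in 347 (37.1%, against 5.06% of all genes) and the 3 TM 24 h arrays below them in 249 (26.6%, against 3.72%). The Cis 24 h arrays lay below in 157 (16.8%, against 4.07%), and the Cis/TM 24 h arrays lay above in 35 (3.74%, against 0.961%). Among the 2104 lower genes, the Control arrays lay below the rest in 1004 (47.7%, against 7.89%) and the Cis 24 h arrays above the rest in 791 (37.6%, against 7.97%). The TM 24 h arrays lay above in 231 (11.0%, against 3.57%), and the Cis/TM 24 h arrays lay below in 13 (0.618%, against 0.614%). A gene raised by each drug alone and overlapping Control with both, such as TWNK or NOB1, has no group apart and is not in these counts. The same 12 arrays gave the departures, so these counts describe the calls and are no further evidence for them. A shift shared by all treated arrays against Control would give a departure of the opposite sign even if the drugs did not interact. Its part in the calls was not tested.

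**Figure D1:**
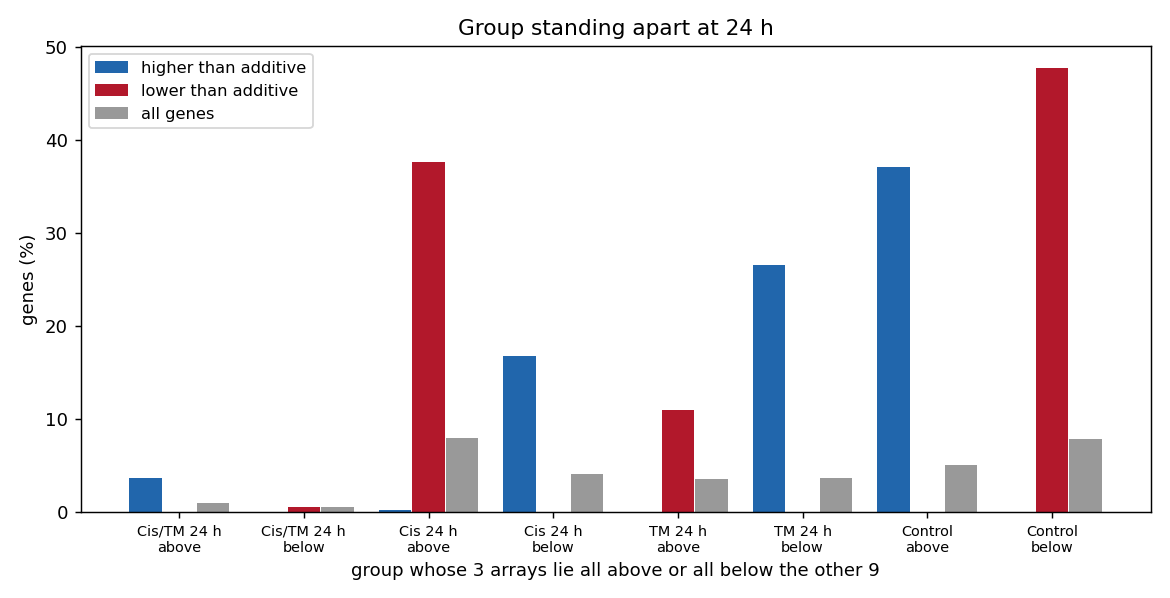
Share of genes (vertical axis, %) in which the 3 arrays of one group lay all above or all below the other 9 arrays, for genes higher than additive (blue, 936), lower than additive (red, 2104) and all genes (grey, 18417). The tallest bars are Control below the rest among lower genes (47.7%) and Cis 24 h above the rest among lower genes (37.6%).

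The interaction can be split into the effect of TM in cells given cisplatin (Cis/TM 24 h minus Cis 24 h) and the effect of TM in cells not given it (TM 24 h minus Control), which share no array. With cisplatin, TM raised 84 genes (0.456%) and lowered 193 (1.05%). Without cisplatin, TM raised 951 genes (5.16%) and lowered 470 (2.55%). Few of the genes that TM changed on its own were also called with TM in the presence of cisplatin, and most of those called there moved the other way. Of the 951 genes raised by TM alone (median 0.73), 2 were also raised with cisplatin and 105 were lowered, the median change with cisplatin was −0.33, and 89.6% had the opposite sign (52.0% of all genes had that sign). Of the 470 genes lowered by TM alone (median −0.75), 0 were lowered with cisplatin and 12 were raised, and the median change with cisplatin was 0.14. Read from the other side, 105 of the 193 genes that TM lowered with cisplatin were genes that it raised alone.

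Across the 18417 genes, the TM effects with and without cisplatin correlated with r = −0.47 (Spearman's rho −0.44) as deposited and r = −0.41 (rho −0.36) after cyclic loess. The values of all arrays were normalized together, and genes are not independent replicates. After cyclic loess, TM alone raised 588 genes and lowered 519, and of these 0 and 0 moved the same way with cisplatin while 39 and 24 moved the other way. Without the array TM 24 h A, r was −0.43.

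**Figure D2:**
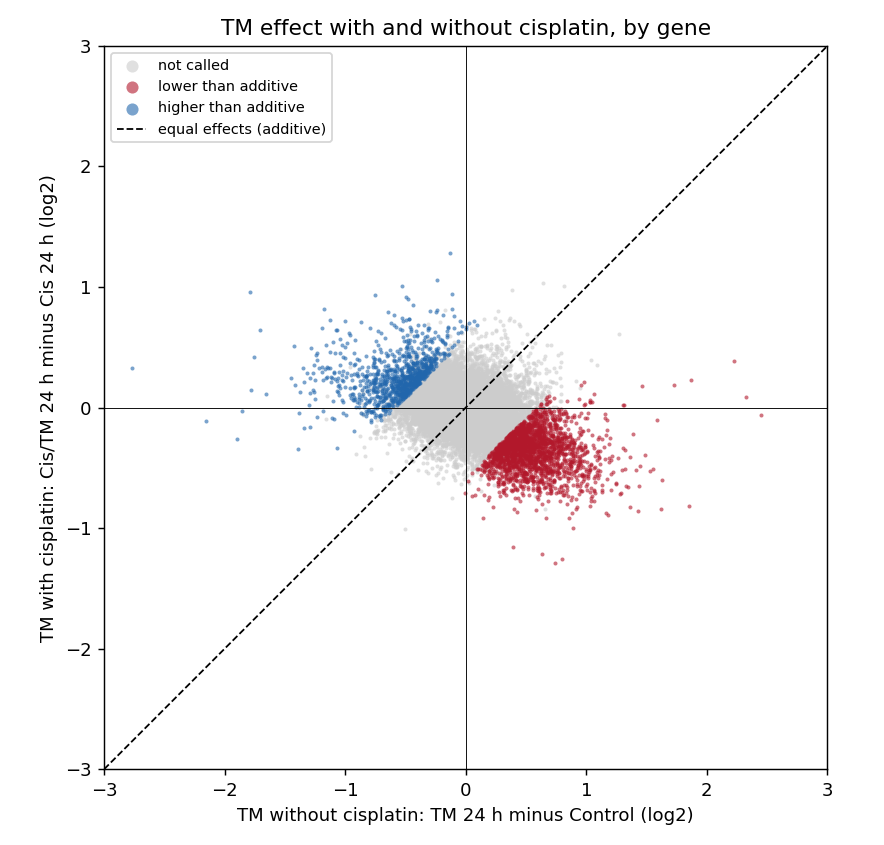
Each point is 1 of 18417 genes, placed by the log2 change with TM without cisplatin (horizontal axis, TM 24 h minus Control) and with cisplatin (vertical axis, Cis/TM 24 h minus Cis 24 h), with genes higher than additive in blue, lower than additive in red and the rest in grey. Points on the dashed line have equal effects, and the called genes lie mostly in the quadrants where the effects have opposite signs (r = −0.47).

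Split the other way, cisplatin raised 650 genes (3.53%) and lowered 506 (2.75%) in cells given TM (Cis/TM 24 h minus TM 24 h), and raised 2115 (11.5%) and lowered 903 (4.9%) in cells not given TM (Cis 24 h minus Control). These effects correlated with r = 0.28 (rho 0.16) across genes. Of the 2115 genes raised by cisplatin alone (median 0.81), 219 were also raised with TM (10.4%, or 33.7% of the 650) and 50 were lowered, and the median change with TM was 0.04. Of the 903 genes lowered by cisplatin alone (median −0.76), 229 were also lowered with TM (25.4%, or 45.3% of the 506) and 21 were raised, and the median change with TM was −0.23.

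The genes with the 12 largest positive departures were all lowered by TM alone. TCP11L2 had log2 signals of 6.13, 6.22 and 6.07 in Cis/TM 24 h, 5.86, 5.84 and 5.75 in Cis 24 h, 4.39, 4.58 and 4.93 in TM 24 h and 7.68, 6.91 and 7.60 on the Control arrays. The 4 groups did not overlap, with TM 24 h lowest and Control highest, and the departure was 3.10 ± 0.23 (SE, adjusted p = 5.5e-07). CYP1B1, a cytochrome P450 that hydroxylates oestrogens and aromatic hydrocarbons, had 8.90, 8.77 and 8.86 in Cis/TM 24 h, 9.03, 8.91 and 8.91 in Cis 24 h, 6.40, 6.58 and 7.0 in TM 24 h and 8.71, 8.79 and 8.93 on the Control arrays. TM 24 h lay below all other arrays, and the departure was 2.04 ± 0.19 (adjusted p = 2.7e-06). SLFN5, a member of the interferon-inducible Schlafen family, had 9.81, 9.81 and 9.70 in Cis/TM 24 h, 9.85, 9.81 and 9.76 in Cis 24 h, 6.95, 7.34 and 7.53 in TM 24 h and 9.13, 9.12 and 9.14 on the Control arrays. TM with cisplatin gave a log2 change of −0.03, which was not called, while TM alone lowered it by a log2 change of −1.85 (departure 1.82 ± 0.16, adjusted p = 1.6e-06).

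Other genes among the 12 largest positive departures were ANKFN1 (2.75), the complement component C5 (2.36), KIAA1107 (2.17), SPA17 (1.93), the interleukin-1 receptor IL1R1 (1.85) and LRRCC1 (1.78), a centrosome protein. A second kind of gene in this group fell most with cisplatin alone. PLCB1, a phospholipase C, changed by −0.69 in Cis/TM 24 h against TM 24 h and by −2.69 in Cis 24 h against Control, with a departure of 2.0. ST6GALNAC3, a sialyltransferase, changed by −1.63 and −3.55 in the same comparisons (departure 1.93), and TBC1D5, a regulator of endosomal transport, by −1.02 and −2.87 (departure 1.85). All 12 also passed the test after cyclic loess, with departures there of 1.74 to 3.25.

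The genes with the 12 largest negative departures were all raised by each drug alone. TWNK, the helicase of mitochondrial DNA, had 7.12, 6.30 and 6.61 in Cis/TM 24 h, 7.69, 7.49 and 7.30 in Cis 24 h, 7.68, 7.73 and 7.99 in TM 24 h and 5.57, 5.73 and 6.55 on the Control arrays. The departure was −2.67 ± 0.31 (adjusted p = 1.5e-05), and the Cis/TM 24 h and Control arrays overlapped while both single-drug groups lay above them. CDCA5, which holds sister chromatids together after replication, had 7.29, 7.14 and 7.22 in Cis/TM 24 h, 8.23, 8.11 and 7.84 in Cis 24 h, 7.10, 7.36 and 7.54 in TM 24 h and 5.49, 6.42 and 5.22 on the Control arrays. Here Control stood below and Cis 24 h above all other arrays, and the departure was −2.46 ± 0.31 (adjusted p = 2.5e-05). TXN2, the mitochondrial thioredoxin (−2.28), YIF1A (−2.23), BUD23, an 18S rRNA methyltransferase (−2.09), KCTD5 (−2.07), LY6K (−2.06) and UCP2, a carrier of the inner mitochondrial membrane (−2.06), followed.

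**Figure D3:**
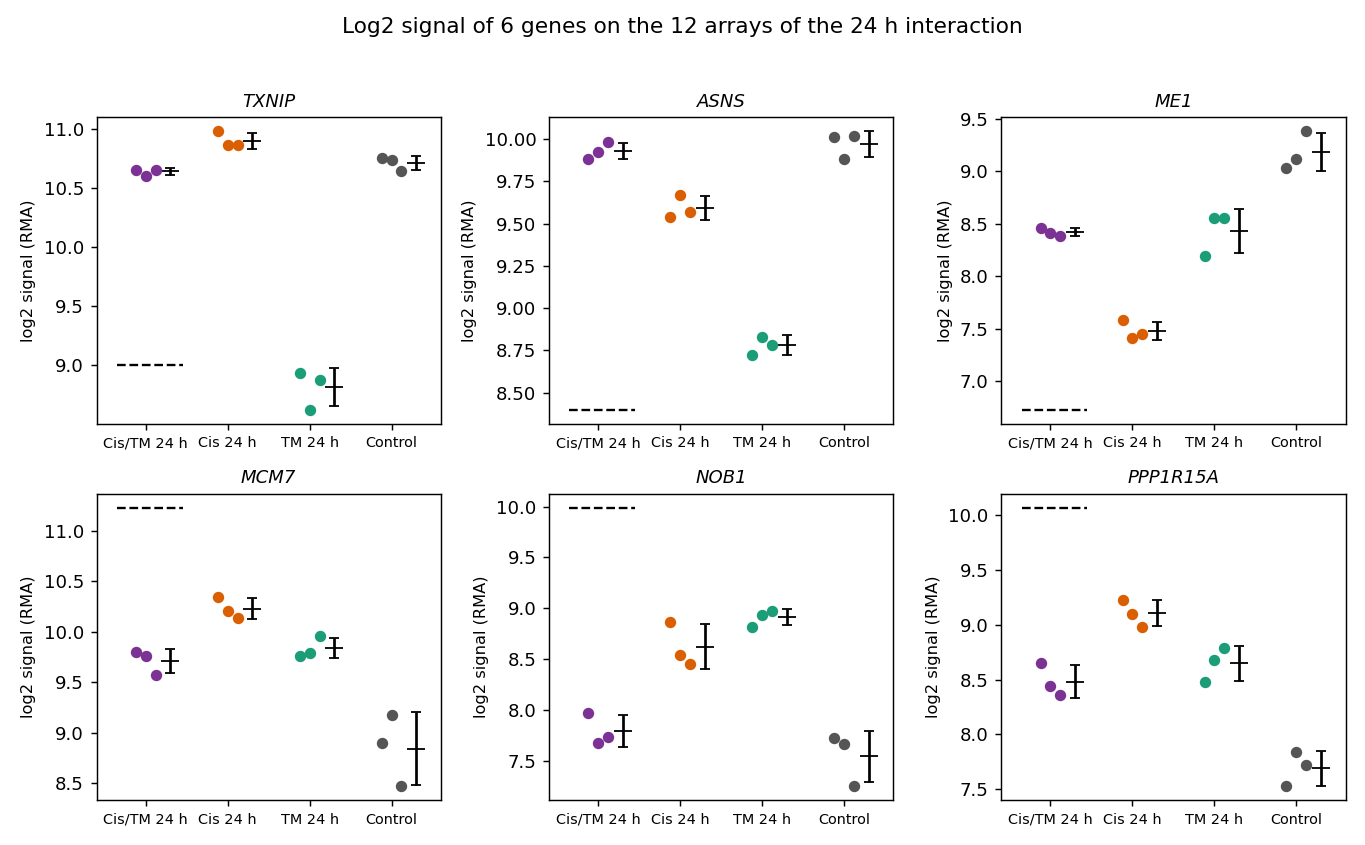
Log2 signal (vertical axis) of 6 genes on each array of Cis/TM 24 h, Cis 24 h, TM 24 h and Control (points, replicates A to C), with the mean and SD of each group (black) and the level in Cis/TM 24 h that additive log2 changes would give (dashed). TXNIP, ASNS and ME1 lay above the dashed level by 1.64, 1.53 and 1.68, and MCM7, NOB1 and PPP1R15A below it by departures of −1.52, −2.19 and −1.58.

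DNA replication genes were called on the lower side only. Of 37 DNA replication genes, 21 were lower than additive and 0 higher, with a median departure of −0.75 (−0.54 after cyclic loess, with 17 lower), against a median of 0.00 and 11.4% lower over all genes. Their median level was 8.67, against 5.84 over all genes. It was 8.96 for ribosome biogenesis, 9.44 for spliceosome and 10.09 for proteasome genes, which are given below. The part of level in these counts was not tested beyond the cyclic loess values. In 23 of the 37 replication genes, the Control arrays lay below all others, against 7.89% of all genes. The part of a shift shared by all treated arrays in this count was not tested. MCM7, a subunit of the replicative helicase, had 9.80, 9.76 and 9.57 in Cis/TM 24 h, 10.34, 10.21 and 10.14 in Cis 24 h, 9.76, 9.79 and 9.96 in TM 24 h and 8.90, 9.17 and 8.47 on the Control arrays. Cells with both drugs overlapped TM 24 h and lay below Cis 24 h, and the departure was −1.52 ± 0.19 (adjusted p = 2.9e-05). RFC2, part of the clamp loader, departed by −1.34 and MCM10, which helps to activate the helicase, by −1.16.

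The DNA replication genes not called had departures up to 0.21. For the lists that follow, the shares over all genes were 11.4% lower and 5.08% higher. After cyclic loess they were 7.23% lower and 6.02% higher. Of 25 regulators of the G1/S transition, 10 were lower and 0 higher (median −0.40, and 1 higher and 8 lower after cyclic loess). MYBL2, a transcription factor of proliferating cells, departed by −1.88, CDC25A, a phosphatase that activates cyclin-dependent kinases, by −1.64, and the kinase CDK4 by −1.05. Mitosis and kinetochore genes had calls on both sides, with 7 of 30 lower and 2 higher and a median of 0.08, and 5 lower and 5 higher after cyclic loess. As deposited, the share of higher genes in this list was near that of all genes. AURKB (−1.37) and KIF2C (−1.07) lay on the lower side. CENPE (0.92) and ASPM (0.98), named here after their values were seen, lay on the higher side. Of 28 excision and mismatch repair genes 8 were lower and 0 higher, and after cyclic loess 4 were lower and 2 higher. The 8 included UNG (−0.87), APEX1 (−0.78) and ERCC1 (−1.06), the nuclease partner that acts on crosslinks. Of 27 checkpoint and homologous recombination genes 6 were lower and 1 higher (5 and 3 after cyclic loess), with EXO1 at −0.86, RAD54L at −1.31 and FANCG, of the Fanconi anaemia pathway, at −1.10.

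Of 45 ribosome biogenesis genes, 23 were lower than additive and 0 higher (median −0.61, and −0.46 with 17 lower after cyclic loess). Over all genes, 11.4% were lower, and 7.23% after cyclic loess. In the presence of cisplatin TM raised 0 of the 45 and lowered 5, whereas alone it raised 19 (5.16% of all genes were raised by TM alone) and lowered 0. NOB1, the endonuclease that finishes 18S rRNA, had 7.97, 7.67 and 7.73 in Cis/TM 24 h, 8.86, 8.54 and 8.45 in Cis 24 h, 8.82, 8.93 and 8.97 in TM 24 h and 7.72, 7.66 and 7.25 on the Control arrays. Each drug alone raised it, cells given both overlapped Control, and the departure was −2.19 ± 0.19 (adjusted p = 9.8e-07). NOP2, an rRNA methyltransferase, had a log2 change of −0.57 with TM in the presence of cisplatin, which was not called, and of 1.07 with TM alone, and NOP16 had −0.29, not called, and 0.96.

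The RNA component of RNase MRP, RMRP, which acts in rRNA processing, had 7.83, 7.94 and 7.62 in Cis/TM 24 h, 9.13, 8.97 and 9.03 in Cis 24 h, 8.50, 8.69 and 8.55 in TM 24 h and 7.53, 8.10 and 7.70 on the Control arrays. Cells with both drugs overlapped Control, and TM in the presence of cisplatin lowered it by a log2 change of −1.25 (departure −2.05). RPPH1, the RNA of RNase P, departed by −1.89. Of 29 RNA polymerase subunits, 19 were lower and 1 higher, with a median of −0.78 (−0.66, with 16 lower and 1 higher, after cyclic loess). The share of lower genes over all genes was 11.4%, and 7.23% after cyclic loess. POLR2A, which carries the catalytic centre of RNA polymerase II, departed by −1.43, and POLR1E and POLR1G, of RNA polymerase I, by −1.16 and −1.02. The higher one was POLR3GL (0.80), named for being the exception.

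The U1 small nuclear RNA copies RNVU1-15 and RNVU1-6 had log2 changes of −0.06 and 0.09 with TM in the presence of cisplatin, which were not called, were raised by 2.45 and 2.32 with TM alone, and departed by −2.51 and −2.23. RNVU1-6 had 5.83, 5.35 and 5.79 in Cis/TM 24 h, 5.50, 5.95 and 5.26 in Cis 24 h, 6.87, 6.93 and 6.92 in TM 24 h and 4.53, 4.77 and 4.47 on the Control arrays. TM 24 h lay above and Control below all other arrays, and the groups with cisplatin overlapped. U1 has many closely related copies, and whether these probe sets separate them was not tested. The list of spliceosomal and other small RNAs holds RNVU1-15, RMRP and RPPH1 but not RNVU1-6. Of its 16 measured members, 4 were lower than additive and 0 higher, with the same counts after cyclic loess. Over all genes, 11.4% were lower as deposited and 7.23% after cyclic loess. Spliceosome proteins were lower in 21 of 41 and higher in 0 (median −0.59, and 16 lower after cyclic loess), with EFTUD2 at −1.42, U2AF1 at −1.43 and PRPF4 at −1.31.

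Among genes of energy metabolism and protein turnover the calls were also mostly on the lower side. Of 31 oxidative phosphorylation genes, 13 were lower than additive and 0 higher (median −0.57, and 9 lower after cyclic loess), with NDUFV1 of complex I at −1.45, NDUFA8 at −0.96 and CYC1 of complex III at −1.50. Of 32 hypoxia and glycolysis genes, 15 were lower and 1 higher (median −0.54, and 12 lower and 1 higher after cyclic loess), with the aldolase ALDOC at −1.23, the pyruvate kinase PKM at −0.86 and PFKFB3, which sets the level of a glycolytic activator, at −1.26. The higher one was VEGFA (0.85), named as the exception. Of 35 proteasome genes, 17 were lower and 0 higher (median −0.47, and 14 lower after cyclic loess), among them PSMD3 (−1.69), PSMC3 (−1.46) and PSMB5 (−1.07). The Control arrays lay below all others in 22 of the 35, against 7.89% of all genes. Of 25 heat shock proteins and chaperonins, 6 were lower and 0 higher (3 lower after cyclic loess), among them HSPB1 (−1.64), CCT7 (−1.01) and STIP1 (−0.79). The median of this list was −0.11, and 0.03 after centring, against 11.4% of all genes lower as deposited and 7.23% after cyclic loess.

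**Figure D4:**
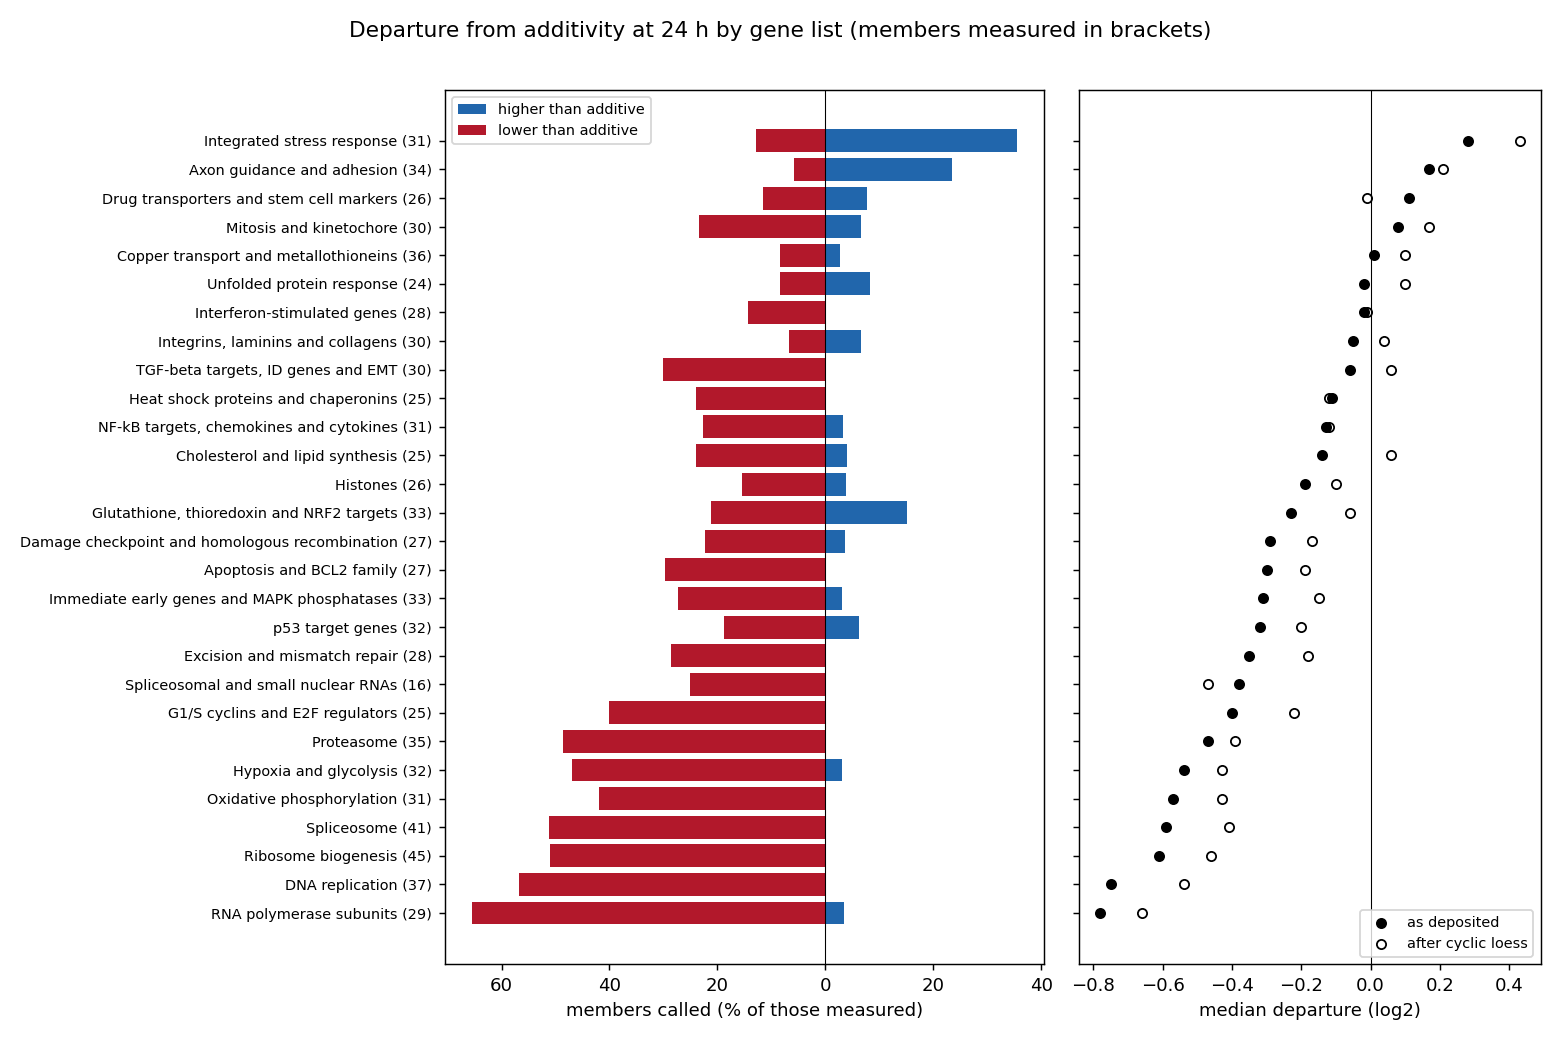
Left, share of the measured members of each gene list (number in brackets) that were higher (blue) or lower (red) than additive at 24 h. Right, median departure (log2) of each list as deposited (filled) and after cyclic loess (open), with integrated stress response genes at the top (0.28 as deposited) and RNA polymerase subunits at the bottom (−0.78).

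The integrated stress response, through which amino acid shortage and other stresses raise amino acid synthesis and transport genes by way of the factor ATF4, had the most members on the higher side of the lists examined. Of 31 genes, 11 were higher and 4 lower, with a median departure of 0.28 (12 higher and 2 lower after cyclic loess), against 5.08% higher over all genes. TM alone lowered 8 of the 31 and raised 1. ASNS, asparagine synthetase, had 9.88, 9.92 and 9.98 in Cis/TM 24 h, 9.54, 9.67 and 9.57 in Cis 24 h, 8.72, 8.83 and 8.78 in TM 24 h and 10.01, 9.88 and 10.02 on the Control arrays. The arrays with both drugs overlapped Control, TM 24 h lay below all others, and the departure was 1.53 ± 0.12 (adjusted p = 5.5e-07). DDIT4, an inhibitor of mTORC1 signalling, had a log2 change of 0.36 with TM in the presence of cisplatin, which was not called, and of −1.26 with TM alone (departure 1.61).

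The other higher members, listed after their values were seen, included the cystathionine lyase CTH (1.55), VLDLR (1.49), the cystine transporter SLC7A11 (1.05), the serine synthesis enzymes PSAT1 (1.04) and PSPH (0.79), and STC2 (0.99). Also named after their values were seen, the transcript of ATF4 itself departed by −0.59, and DDIT3 (0.17, adjusted p = 0.60) and TRIB3 (0.13, adjusted p = 0.59) were not called. The 4 members on the lower side included PPP1R15A, the phosphatase subunit that ends the response. It had 8.65, 8.44 and 8.36 in Cis/TM 24 h, 9.23, 9.10 and 8.98 in Cis 24 h, 8.48, 8.68 and 8.79 in TM 24 h and 7.53, 7.84 and 7.72 on the Control arrays. The groups with both drugs and with TM overlapped, Control lay below and Cis 24 h above them, and the departure was −1.58 ± 0.17 (adjusted p = 7.3e-06). Of 24 unfolded protein response genes, 2 were higher (XBP1 at 0.68 and SEL1L at 0.99) and 2 lower, among them SEC61B (−0.98), and after cyclic loess 4 were higher and 1 lower. The median departure was −0.02, and the shares as deposited were near those of all genes (5.08% higher and 11.4% lower).

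Redox genes were divided. Of 33 glutathione, thioredoxin and NRF2 target genes, 5 were higher and 7 lower (7 and 6 after cyclic loess). Over all genes, 5.08% were higher and 11.4% lower (6.02% and 7.23% after cyclic loess). TXNIP, which binds and inhibits thioredoxin, had 10.65, 10.60 and 10.65 in Cis/TM 24 h, 10.98, 10.86 and 10.86 in Cis 24 h, 8.93, 8.62 and 8.87 in TM 24 h and 10.75, 10.74 and 10.64 on the Control arrays. TM in the presence of cisplatin gave a log2 change of −0.26, which was not called, and TM alone lowered it by −1.90. The departure was 1.64 ± 0.13 (adjusted p = 5.5e-07). ME1, the cytosolic malic enzyme, which supplies NADPH, had 8.46, 8.41 and 8.38 in Cis/TM 24 h, 7.58, 7.41 and 7.45 in Cis 24 h, 8.19, 8.55 and 8.55 in TM 24 h and 9.03, 9.12 and 9.38 on the Control arrays. Here Cis 24 h was lowest and TM in the presence of cisplatin raised the gene by 0.94 (departure 1.68).

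GPX1, a glutathione peroxidase, had 6.47, 6.20 and 6.05 in Cis/TM 24 h, 7.27, 7.05 and 7.02 in Cis 24 h, 7.20, 7.26 and 7.51 in TM 24 h and 6.03, 6.39 and 6.08 on the Control arrays. Each drug alone raised it, and both together left it overlapping Control (departure −2.03 ± 0.19, adjusted p = 2.7e-06). The peroxidase GPX4 (−1.53) and the transferase GSTP1 (−1.33) were also lower than additive, and the reductase TXNRD1 (0.77) was higher, all named after their values were seen.

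Of 36 copper transport and metallothionein genes, 1 was higher and 3 lower, with a median departure of 0.01, against 5.08% higher and 11.4% lower over all genes. The balance turned round with the scaling, with 5 higher and 2 lower after cyclic loess, 6 and 2 after centring and 4 and 2 after quantile normalization. The balance over all genes also moved, from 936 higher and 2104 lower to 1799 and 1450 after centring and 1108 and 1331 after cyclic loess. ATP7A, the copper pump, had 8.06, 7.82 and 7.99 in Cis/TM 24 h, 7.41, 7.34 and 7.33 in Cis 24 h, 7.24, 7.54 and 7.75 in TM 24 h and 7.93, 7.97 and 7.84 on the Control arrays. Both single-drug groups lay below the others and overlapped each other, and Cis/TM 24 h overlapped Control. The departure was 1.01 ± 0.22 (adjusted p = 0.0029), and TM in the presence of cisplatin raised ATP7A by 0.60, against −0.41 with TM alone, which was not called. ATOX1, the copper chaperone that serves ATP7A, departed by −1.02 (adjusted p = 0.00069), and MTF1, the metal-responsive transcription factor, by −0.86 (adjusted p = 0.0017).

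ATP7B departed by 0.53 ± 0.24 (adjusted p = 0.12) and the importer SLC31A1 by 0.23 ± 0.12 (adjusted p = 0.16), and neither was called. The metallothionein MT2A, named after its value was seen, departed by 0.02 ± 0.12 (adjusted p = 0.95). ABCB1, the drug efflux pump also known as MDR1, departed by 0.29 ± 0.18 (adjusted p = 0.27), at log2 signals of 3.23 to 3.74 on all 12 arrays. STAT3 departed by −0.79 ± 0.19 (adjusted p = 0.0058), with 10.01, 9.85 and 9.61 in Cis/TM 24 h, 10.24, 10.16 and 9.99 in Cis 24 h, 9.90, 9.84 and 10.04 in TM 24 h and 9.59, 9.67 and 9.07 on the Control arrays. The STAT3 arrays with both drugs overlapped those of each other group.

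Counts of lower genes in the signalling and cell death lists fell after cyclic loess. Of 31 NF-κB target, chemokine and cytokine genes, 7 were lower and 1 higher (4 and 0 after cyclic loess), against 11.4% lower over all genes (7.23% after cyclic loess). CXCL8, the neutrophil chemokine interleukin-8, had 7.95, 7.63 and 7.70 in Cis/TM 24 h, 8.57, 8.39 and 8.16 in Cis 24 h, 6.06, 6.17 and 6.14 in TM 24 h and 5.69, 6.12 and 5.77 on the Control arrays. Cisplatin raised it with and without TM, by 1.63 and 2.51, the groups with cisplatin did not overlap, and the departure was −0.88 ± 0.21 (adjusted p = 0.0046). NFKB2 departed by −1.04 and IL11 by −1.20. Of 28 interferon-stimulated genes, 4 were lower and 0 higher (median −0.02), a share near that of all genes, and 2 were lower and 2 higher after cyclic loess. The 4 included IRF1 (−1.12), OASL (−0.87) and IFIT2 (−0.72, not called after cyclic loess).

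Of 32 p53 target genes, 6 were lower and 2 higher (4 and 3 after cyclic loess). Over all genes, 11.4% were lower and 5.08% higher (7.23% and 6.02% after cyclic loess). PMAIP1, which encodes the BCL2 family antagonist NOXA, departed by −1.43 and GADD45B by −1.19, whereas CCNG2, a cyclin of arrested cells, departed by 1.13. CCNG2 had 8.57, 8.49 and 8.48 in Cis/TM 24 h, 8.60, 8.75 and 8.65 in Cis 24 h, 6.84, 6.59 and 6.79 in TM 24 h and 7.93, 7.94 and 8.21 on the Control arrays, and its log2 change with TM was −0.16, not called, in the presence of cisplatin and −1.29 alone. CDKN1A, named after its value was seen, departed by −0.89. Of 27 apoptosis genes, 8 were lower and 0 higher, against 3 and 0 after cyclic loess, a share that is then near that of all genes. The 8 included CASP2 (−1.20) and FADD (−0.70, not called after cyclic loess). Of 33 immediate early genes and MAPK phosphatases, 9 were lower and 1 higher, against 2 and 1 after cyclic loess, 3 and 1 after quantile normalization and 4 and 1 after centring. After cyclic loess the share of lower genes in this list was near that of all genes (7.23%).

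DUSP1, a phosphatase that switches off MAP kinases, had 8.78, 8.69 and 8.47 in Cis/TM 24 h, 8.78, 8.78 and 8.70 in Cis 24 h, 8.89, 8.83 and 8.96 in TM 24 h and 7.18, 7.66 and 7.07 on the Control arrays. All 9 treated arrays lay above Control within a narrow band, and the departure was −1.69 ± 0.18 (adjusted p = 7.5e-06). Whether this shared rise came from the drugs or from another difference of the Control arrays was not tested. SGK1 departed by −0.84, and there too Control lay below all other arrays.

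Promoter windows of 250 bases before to 50 bases after the start were taken from RefSeq (GRCh38.p14) for 729 of the higher genes, 1755 of the lower genes and 14239 of all genes, and searched on both strands. The cAMP response element TGACGTCA was found in 4.16% of the lower genes, 1.51% of the higher genes and 2.65% of all genes. The E2F motif TTTCGCGC was found in 1.31%, 0.412% and 0.836%, and the E2F motif TTTGGCGC in 1.20%, 0.686% and 0.864%. The cell cycle homology region TTTGAA was found in 8.26%, 14.8% and 11.9%, the heat shock motif GAANNTTC in 4.39%, 7.82% and 5.44% and the amino acid response motif TGATGCAA in 0.456%, 0.96% and 0.73%. The metal response core was searched as TGCGCNC (32.6%, 23.6% and 26.4%) and TGCACNC (11.1%, 11.0% and 11.8%). The antioxidant response motif TGACNNNGC was found in 16.5%, 12.9% and 14.6% and the interferon response motif GAAANNGAA in 5.98%, 7.68% and 6.83%. CCAAT was found in 39.5%, 36.4% and 36.3%, and the NF-κB motif GGGANNTTC in 3.70%, 4.25% and 4.23%. A match is a description of the letters and not evidence of binding. The windows of DUSP1 (chr5:172771146-172771445, minus strand) and PPP1R15A (chr19:48872171-48872470, plus strand), both lower than additive, each hold 1 cAMP response element, and that of MCM7 (chr7:100101348-100101647, minus strand) holds 1 E2F motif TTTCGCGC. They are shown 5′ to 3′ as examples of the motifs more frequent among the lower genes, with the motif in capitals.
DUSP1: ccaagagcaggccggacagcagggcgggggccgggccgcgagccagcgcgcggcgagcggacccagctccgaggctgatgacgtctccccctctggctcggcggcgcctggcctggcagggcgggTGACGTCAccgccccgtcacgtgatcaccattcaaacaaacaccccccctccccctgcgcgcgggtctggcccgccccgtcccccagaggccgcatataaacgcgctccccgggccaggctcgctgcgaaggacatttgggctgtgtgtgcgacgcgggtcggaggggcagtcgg
PPP1R15A: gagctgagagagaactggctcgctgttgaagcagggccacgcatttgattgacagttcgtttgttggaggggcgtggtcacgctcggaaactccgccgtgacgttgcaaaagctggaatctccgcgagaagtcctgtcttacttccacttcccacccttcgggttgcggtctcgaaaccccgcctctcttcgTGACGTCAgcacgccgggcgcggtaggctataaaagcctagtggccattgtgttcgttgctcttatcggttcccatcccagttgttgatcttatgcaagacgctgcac
MCM7: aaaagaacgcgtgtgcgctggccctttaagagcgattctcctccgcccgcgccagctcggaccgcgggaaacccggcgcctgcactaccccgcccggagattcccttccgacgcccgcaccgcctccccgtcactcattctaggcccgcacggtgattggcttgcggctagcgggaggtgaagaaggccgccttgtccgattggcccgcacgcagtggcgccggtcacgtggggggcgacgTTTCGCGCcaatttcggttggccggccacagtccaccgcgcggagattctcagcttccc

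Of 34 cell adhesion and axon guidance genes, 8 were higher than additive and 2 lower (median 0.17, and 7 higher and 1 lower after cyclic loess), against 5.08% higher and 11.4% lower over all genes. PTPRM, a receptor phosphatase of cell contacts, had 6.60, 6.29 and 6.36 in Cis/TM 24 h, 5.76, 5.64 and 5.80 in Cis 24 h, 8.28, 8.55 and 8.75 in TM 24 h and 8.84, 9.02 and 8.91 on the Control arrays. Cisplatin lowered it with and without TM, by log2 changes of −2.11 and −3.19, the 4 groups did not overlap, and the departure was 1.08 ± 0.18 (adjusted p = 0.00033). ROBO1, a guidance receptor, changed by −0.62 and −1.58 in the same comparisons, and NTN4, a netrin, had values of −0.30, which was not called, and −0.97. PTPRM and ROBO1, but not NTN4, span over 300 kb, where 15.4% of genes were higher than additive and 1.37% lower. The median level of the list was 5.06, against 5.84 over all genes. The part of gene span and level in its counts was not tested. Integrin, laminin and collagen genes were higher in 2 of 30 (ITGA2 at 1.12 and ITGB8 at 1.16) and lower in 2, among them ITGA5 (−0.84). Their median departure was −0.05. The share of higher genes was near that of all genes, and the share of lower genes was below it. After cyclic loess 4 were higher and 1 lower.

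The shares of calls differed with gene span above 30 kb and little below it. Of 729 genes spanning over 300 kb, 15.4% were higher and 1.37% lower than additive, with a median departure of 0.23. Of 4975 genes spanning 10 to 30 kb, 3.06% were higher and 15.9% lower, with a median of −0.09, and of 5245 genes under 10 kb, 3.37% were higher and 14.3% lower, with a median of −0.03. Between these, 5.37% were higher and 9.33% lower at 30 to 100 kb, and 9.24% and 3.47% at 100 to 300 kb. After cyclic loess these shares were 16.9% and 0.823% for the longest genes 3.48% and 10.2% for genes of 10 to 30 kb and 2.10% and 9.67% for genes under 10 kb. In genes over 300 kb the median change with cisplatin was −0.17 in the presence of TM and −0.41 without it, and the median change with TM was 0.12 in the presence of cisplatin and −0.10 without it. After cyclic loess these medians were −0.14, −0.29, 0.10 and −0.02. The median departure was then 0.14 in genes over 300 kb and 0.16 at 100 to 300 kb. The longest genes also had a low median level (4.82, against 5.84 over all genes), and the part of level in these shares was not tested beyond the cyclic loess values. The higher genes had a median span of 61.8 kb and the lower genes of 15.8 kb, against 24.5 kb over all genes.

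**Figure D5:**
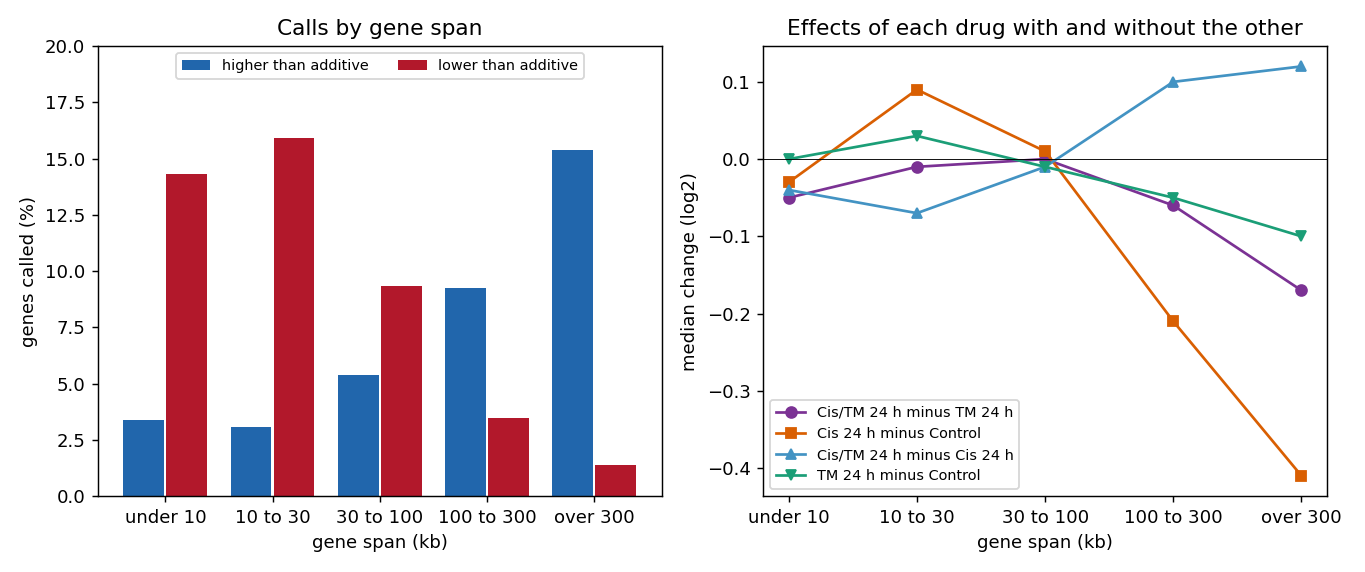
Left, share of genes higher (blue) and lower (red) than additive at 24 h by gene span (kb). Right, median log2 change with cisplatin in the presence of TM (circles) and without it (squares), and with TM in the presence of cisplatin (upward triangles) and without it (downward triangles), with medians of −0.17, −0.41, 0.12 and −0.10 in genes over 300 kb. All values are as deposited, and after cyclic loess these medians were −0.14, −0.29, 0.10 and −0.02.

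Whether the departure differed between 24 h and 12 h was tested directly, in a contrast in which the Control arrays cancel. The difference was positive and called in 4 genes (0.0217%) and negative in 0 (0.0%) in limma, and at an unadjusted p under 0.05 with the same fold minimum in 174 and 111. The group given TM for 12 h has 2 arrays, and the median standard error of this difference was 0.244. The departures at the 2 times share the Control arrays, so their values are only set side by side. The 936 genes higher than additive at 24 h had a median departure of 0.77 at 24 h and 0.61 at 12 h, and the 2104 lower genes had −0.87 at 24 h and −0.68 at 12 h.

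The 4 genes with a called difference span 257 to 508 kb and were lowered by cisplatin. ARHGAP26, a GTPase-activating protein, had 8.07, 8.02 and 8.09 in Cis/TM 24 h, 7.23, 6.98 and 6.93 in Cis 24 h, 8.67, 8.54 and 8.87 in TM 24 h and 9.26, 9.28 and 9.12 on the Control arrays. At 12 h it had 7.51, 7.37 and 7.59 in Cis/TM, 7.51, 7.95 and 7.88 in Cis and 8.78 and 8.77 in TM. At 24 h the arrays with both drugs lay above those with cisplatin, and at 12 h the groups overlapped. The departure was 1.54 at 24 h and 0.15 at 12 h (difference 1.38 ± 0.22, adjusted p = 0.033).

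PRKCA, the kinase PKCα, had 7.63, 7.47 and 7.47 in Cis/TM 24 h, 6.99, 6.78 and 6.79 in Cis 24 h, 9.11, 9.23 and 9.26 in TM 24 h and 9.40, 9.36 and 9.27 on the Control arrays, and at 12 h 7.57, 7.52 and 7.45 in Cis/TM, 7.79, 8.01 and 7.71 in Cis and 9.37 and 9.34 in TM. The order of the groups with cisplatin turned round between the times, without overlap at either (difference 1.15 ± 0.18, adjusted p = 0.033). PDGFD, a growth factor of the PDGF family, had departures of 0.97 at 24 h and −0.28 at 12 h, and DTNA, a dystrobrevin, of 1.02 and −0.19. The count of genes with a positive difference stayed at 4 without Cis 24 h A or Cis/TM 12 h A, was 9 without Cis 12 h A, and was 0 or 1 without any other single treated array.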

How the data were processed

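MDA-MB-231 cells were profiled on 20 Affymetrix Human Gene 1.0 ST arrays in 7 groups (3 arrays each, 2 for TM 12 h). The log2 values deposited by the authors came from RMA (background correction, quantile normalization and summary of probes) and were taken as they stood. RMA compresses differences at low signal, and depth has no meaning for arrays, whose number limits the precision. Of 33297 transcript clusters, 19460 carried 1 gene symbol in the platform annotation, and each of 18417 genes was represented by its cluster with the highest mean over the 20 arrays. A further 1754 clusters with several symbols and 12083 without one were left out. One linear model with 7 groups and 13 residual degrees of freedom was fitted with limma 3.58.1 in R 4.3.3, with eBayes moderation. Every adjusted p comes from limma, by Benjamini-Hochberg adjustment over all genes. A gene was called at an adjusted p under 0.05 and a departure or change over 1.5-fold. The script was tested on simulated data. Tables were made with Python 3.11.15 and pandas 2.3.3.

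The genes named are the 12 largest called departures in each direction, up to 3 called members of each list by p, up to 5 called in each direction between the times, and ATP7A, ATP7B, SLC31A1, STAT3 and ABCB1, which the study names. Other genes with a departure given are marked as named after their values were seen or as the exception in their list. The comparison, the gene lists and the motifs were chosen with earlier results of these data known. Alternatives covered the scaling, a filter on low values, the cluster per gene, the arrays fitted, the variance model, the thresholds, the scale of additivity, the replicate letters and each array left out. The letters A to C were not used as pairs in the main fit. Residuals of arrays with the same letter had a median correlation of 0.008 over 57 pairs, from −0.423 to 0.613. This does not settle whether the letters mark arrays handled together.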

Additional observations from a re-analysis of the deposited data

Results flagged for a closer look

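The departure differed between 24 h and 12 h by the test of the difference itself in 4 genes. The departure at 24 h minus that at 12 h was 1.38 for ARHGAP26 and 1.15 for PRKCA (adjusted p = 0.033 for both, limma), and 1.25 for PDGFD and 1.22 for DTNA (adjusted p = 0.041 for both). In each, cells given both drugs lay above cells given cisplatin at 24 h, with no overlap between the groups, and at 12 h the departure was 0.15 for ARHGAP26, −0.33 for PRKCA, −0.28 for PDGFD and −0.19 for DTNA. These calls did not hold in most repeats, since the number of genes called was 0 with the replicate block, 1 without moderation, and 0 or 1 with 14 of the 17 treated arrays left out one at a time.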

How the results depend on the processing

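The counts of genes higher and lower than additive were 936 and 2104. They were 1799 and 1450 after centring each array on its median, 1129 and 1358 after quantile normalization, 1108 and 1331 after cyclic loess, 1424 and 2645 with no fold minimum, 216 and 702 with a 2-fold minimum, and 1562 and 2459 for additivity of the unlogged signals. Leaving out the lowest 25% of genes gave 637 and 2126. Leaving out 1 array at a time gave 753 to 1117 higher genes and 1813 to 2269 lower genes. With the letters as a replicate block the counts were 943 and 2099. The difference between 24 h and 12 h, called in 4 genes as positive and 0 as negative, gave 8 and 0 after cyclic loess, 2 and 0 with a trended and robust variance, 38 and 4 with array quality weights, 1 and 0 without moderation, 174 and 111 at an unadjusted p, 0 and 0 with the replicate block, and 0 to 9 and 0 to 1 with 1 array left out. For these counts the cause of the changes was not tested, beyond those that follow from the threshold itself. Of 113 named genes, 110 were called, and none changed direction under the 26 alternatives. In 36 of them the call was lost under at least 1 alternative, 34 of these under the 2-fold minimum, and the replicate block changed 1 call. Gene lists and drug effects under other scalings were added after seeing the data. The number of arrays limits precision, and signal over background is not given in the values.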
